A study of Homo sapiens with 15 samples.

Results

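Fibrinogen and the genes that start and restrain clotting at the cell surface were followed in BEAS-2B cells, an immortalized line of human bronchial epithelial cells, exposed to fine particulate matter (PM2.5) collected in Beijing. The 9 genes were the fibrinogen chains FGA, FGB and FGG, tissue factor (F3), the inhibitors TFPI and TFPI2, thrombomodulin (THBD) and the protease-activated receptors F2R and F2RL1, out of 58219 genes in the deposited table. They were selected on the fitted log2 fold change after 30 µg/cm2 of PM2.5 against control at 24 h, in which FGB and FGG were among the largest falls, and were taken by symbol. Everything measured in that contrast is therefore given for them as a description with no test. All 9 passed the filter on low counts that left 17599 genes for testing. FGA passed it only through the 24-h control and 1 µg/cm2 cells, and FGB and FGG, too, were under 1 CPM (counts per library scaled to 1000000) in every other library.

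There were 5 groups of 3 libraries, and the libraries within a group came from independent experiments. Libraries with the same number in different groups of a protocol share an experiment. In the single-exposure protocol cells stood for 24 h in medium alone (control) or with PM2.5, at 1 µg/cm2 or at 30 µg/cm2. In the repeated protocol they received medium alone or 1 µg/cm2 daily, were washed between treatments and were collected on day 7. The design text gives 7 days of treatment and the methods give 6 daily exposures. All groups shared the serum-free bronchial epithelial medium (BEGM), and all cells came from 1 immortalized line, so no donor was compared with another. The repeated protocol was plated at a lower density than the single-exposure protocol.

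Fibrinogen is a plasma protein assembled from Aα, Bβ and γ chains, which FGA, FGB and FGG encode. It is made mainly by hepatocytes, and lung epithelial cells can make it under inflammatory stimulation with interleukin-6 and glucocorticoid. Tissue factor is the cell-surface receptor for factor VIIa and starts clotting, TFPI blocks that complex together with factor Xa, and thrombomodulin turns thrombin towards the activation of protein C. Thrombin and other clotting proteases also signal to the cell by cutting the receptors that F2R and F2RL1 encode.

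The fibrinogen genes lie beside each other on chromosome 4 (GRCh38), FGB at chr4:154562956-154571086 on the plus strand, FGA at chr4:154583126-154590766 and FGG at chr4:154604134-154612967 on the minus strand. Windows of 200 bases that end at the base before the outermost annotated start are shown for FGA and FGB, whose levels moved together across the libraries, and for F3, whose level did not follow theirs. They were read from RefSeq's promoter table (GRCh38.p14), and none of the 3 windows reaches into an annotated exon of its gene. In FGG, longer annotated transcripts run through the same stretch, so no window is shown. Capitals mark matches on either strand to an HNF1 motif (GTTAAT), C/EBP (TTNNGNAA), the core of the IL-6 response element (CTGGGAA) or AP-1 (TGANTCA). The glucocorticoid receptor motif (AGAACA) and the TATA box (TATAAA) were searched as well and had no match in the 3 windows. The windows end short of the RefSeq starts (154590742 for FGA, 154562980 for FGB and 94541759 for F3). The bases between were not searched, so a TATA box there would not be seen.
FGA, chr4:154590767-154590966, minus strand: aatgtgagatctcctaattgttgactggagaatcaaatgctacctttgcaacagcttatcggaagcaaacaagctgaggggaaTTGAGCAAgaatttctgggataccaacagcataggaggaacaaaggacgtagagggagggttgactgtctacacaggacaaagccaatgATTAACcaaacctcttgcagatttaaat
FGB, chr4:154562756-154562955, plus strand: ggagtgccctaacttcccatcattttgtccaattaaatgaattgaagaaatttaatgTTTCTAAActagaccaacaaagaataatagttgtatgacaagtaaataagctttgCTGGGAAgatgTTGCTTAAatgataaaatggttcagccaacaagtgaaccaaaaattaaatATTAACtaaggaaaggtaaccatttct
F3, chr1:94541801-94542000, minus strand: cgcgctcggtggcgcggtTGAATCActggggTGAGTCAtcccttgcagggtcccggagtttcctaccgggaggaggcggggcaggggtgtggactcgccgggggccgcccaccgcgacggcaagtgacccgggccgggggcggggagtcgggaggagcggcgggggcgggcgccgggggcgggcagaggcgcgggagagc

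The FGA and FGB windows each held 1 HNF1 motif, at bases 173 to 178 and 174 to 179 of the window, a motif found in 4.87% of 27305 gene promoters over the 200 bases before the RefSeq start. FGA held 1 C/EBP match and FGB held 2, a pattern found in 27.07% of promoters. The IL-6 response element core was found in FGB alone among the 3 windows, at bases 113 to 119, and in 7.56% of promoters. The F3 window held 2 AP-1 matches and neither an HNF1 nor a C/EBP match, and AP-1 was found in 5.39% of promoters. None of the matches overlapped another, and a match describes letters in the window and not binding.

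Each library held 21460981 to 34724765 counted reads, and levels are given as CPM, scaled by the trimmed mean of M values. A count of 0 allows up to 3 counts, which was 0.0867 to 0.149 CPM in these libraries. Experiment 2 of the single-exposure protocol stood apart from experiments 1 and 3 in all 3 groups. The chi-square per degree of freedom over genes was 76.6 to 181 between experiment 2 and either of the others, 4.44 to 18.1 between experiments 1 and 3, and 4.32 to 25.5 within the 7-day groups. In the 24-h controls, experiment 2 had 0.318 times the F3, 0.299 times the TFPI2, 0.263 times the THBD and 2.26 times the FGG level of the mean of experiments 1 and 3. Calls and most fitted values that rest on those libraries are therefore also given without them. Such fits hold 2 libraries in each 24-h group, and experiment 2 was singled out from these same data.

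All 7 epithelial markers (CDH1, EPCAM and keratins 5, 7, 8, 18 and 19) were above 3 counts in every library. Their summed level was 1559 to 2622 CPM after 30 µg/cm2 against 3649 to 4164 CPM in the 24-h controls and 3212 to 4058 CPM after 1 µg/cm2. It was 1934 to 2208 CPM in the repeatedly exposed cells against 2948 to 3515 CPM in the 7-day controls. The part of this difference in the results below was not tested. Of 5 hepatocyte markers, APOH was at 0 in all libraries and ALB reached 11 counts at most, and of 5 endothelial markers none exceeded 8 counts in a library. The platelet genes PF4, PPBP and GP9 reached 2 counts at most, while ITGA2B reached 212 and GP1BA 88. Among the leukocyte markers PTPRC and CD68 reached 3 counts at most and CD14 reached 515, and the summed level of 4 fibroblast markers was 28.1 to 62.1 CPM. In bulk RNA such as this, fewer cells expressing a gene and less RNA per cell cannot be told apart.

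**Figure D1:**
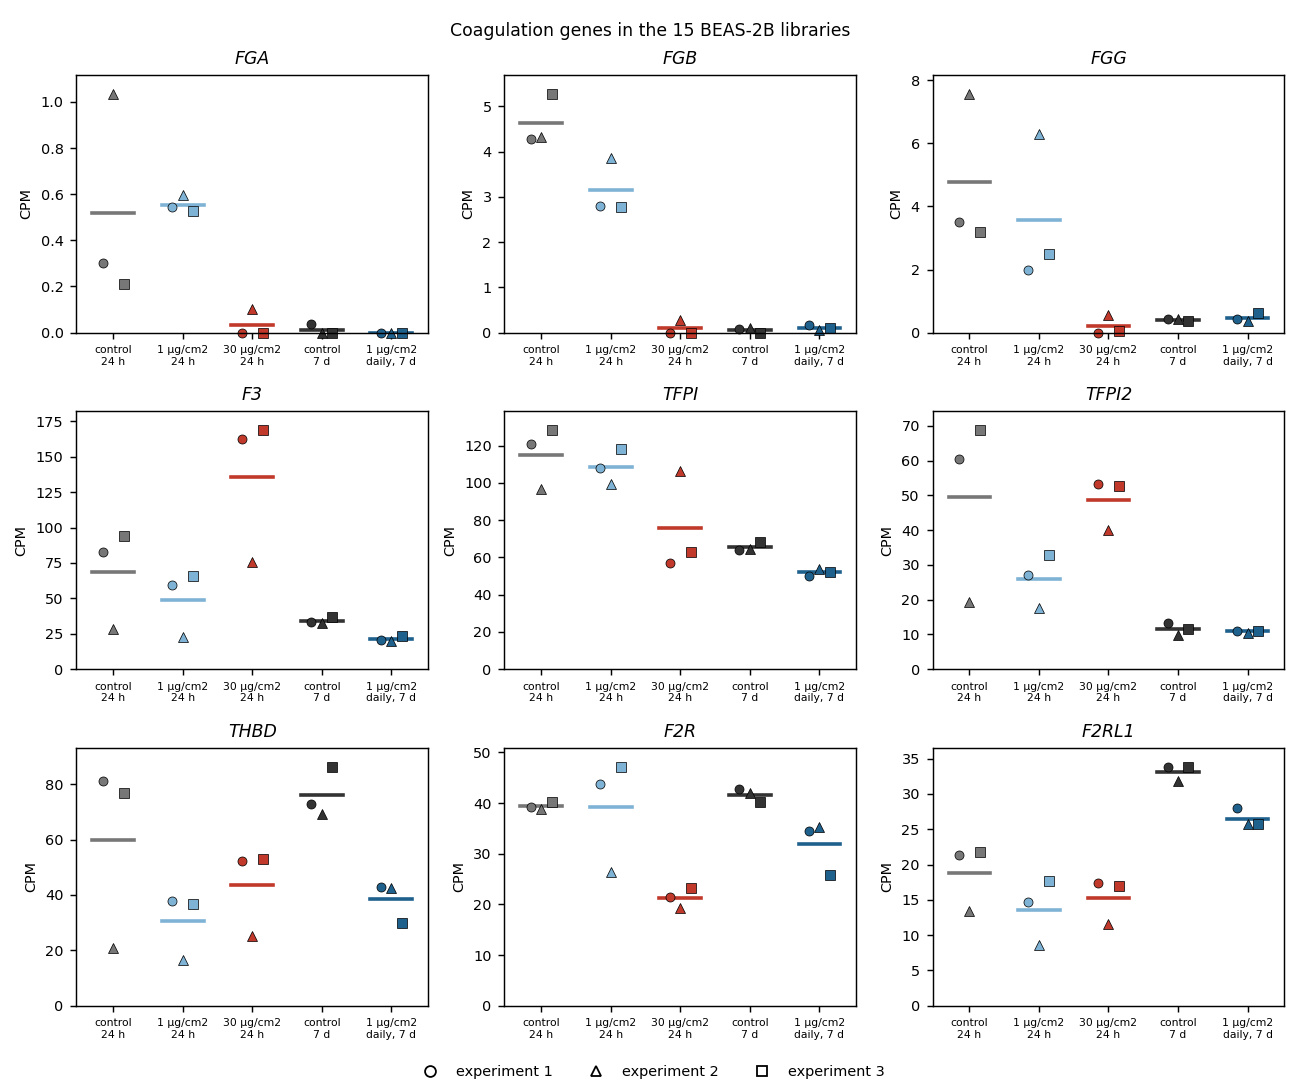
Level of each of the 9 genes (CPM, linear axes from 0) in the 15 libraries by group, with a symbol for each experiment and a bar at the group mean. The fibrinogen chains were near 0 in all but the 24-h control and 1 µg/cm2 cells, while F3 reached 162 and 169 CPM in 2 of the 3 libraries given 30 µg/cm2, and the experiment 2 triangles of F3, TFPI2 and THBD lie under the others at 24 h.

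Fibrinogen transcripts were scarce in the 24-h control cells. FGB, the Bβ chain gene, had 142, 92 and 149 counts in experiments 1, 2 and 3 (4.28, 4.33 and 5.28 CPM). FGG, the γ chain gene, had 117, 161 and 90 counts (3.52, 7.58 and 3.19 CPM). FGA, the Aα chain gene, had 10, 22 and 6 counts (0.301, 1.04 and 0.213 CPM). Experiment 2 was the highest for FGA and FGG but not for FGB, so its departure was not the same for the 3 chains.

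Per kilobase of annotated exon, the scale on which genes can be compared, the 24-h controls held 23.8 ± 12.3 CPM per kb of F3 (SD, n = 3), 18.6 ± 9.95 of TFPI2, 14.5 ± 8.21 of THBD, 9.83 ± 1.42 of TFPI and 9.69 ± 0.171 of F2R. Each of these differed from the next in the order by less than the larger of their SDs. F2RL1 followed at 6.37 ± 1.59 CPM per kb, below F2R by more than their SDs. FGB (1.71 ± 0.208 CPM per kb) and FGG (1.32 ± 0.679) could not be ordered, and FGA was lowest at 0.131 ± 0.114. TFPI has an annotated exon length of 11714 bases, against 2663 to 4109 for the others, and the scale divides by it.

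Of the genes outside the fibrinogen cluster, F3 lies at chr1:94529225-94541800, TFPI at chr2:187464230-187565760, TFPI2 at chr7:93885397-93890991 and THBD at chr20:23045633-23049741, all on the minus strand. F2R (chr5:76716043-76735781) and F2RL1 (chr5:76818933-76835315) are neighbours on the plus strand. Counts are over annotated exons. Exons of TFPI share 118 bases with the antisense gene CALCRL-AS1, those of TFPI2 share 79 with TFPI2-DT and 44 with GNGT1, and those of F2R share 39 with an unnamed noncoding gene, all on the opposite strand, and reads from such bases cannot be told apart if strand was not used in counting.

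In the 7-day controls the order on this scale was different. THBD was highest at 18.5 ± 2.16 CPM per kb, then F3 at 11.9 ± 0.810 and F2RL1 at 11.2 ± 0.397, which lay within their SDs, and F2R at 10.2 ± 0.316. TFPI followed at 5.60 ± 0.200 and TFPI2 at 4.35 ± 0.641. FGG was at 0.112 ± 0.00665 CPM per kb, and FGB and FGA had 5 counts and 1 count over the 3 libraries.

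After 30 µg/cm2 for 24 h, the contrast that chose the genes, fibrinogen transcripts were almost gone. FGB had 0, 8 and 0 counts, FGG had 0, 16 and 1 counts, and FGA had 0, 3 and 0 counts in experiments 1, 2 and 3. All of the remaining counts but 1 came from experiment 2, and every exposed library was below every control library for each chain. The fitted log2 fold change was -5.49 ± 0.702 (SE) for FGB, the 3rd lowest of the 17599 genes, and -4.48 ± 0.781 for FGG, the 8th lowest. In experiments 1 and 3 alone FGB was at least 39.4-fold lower than in controls, measured against 3 counts per library. There FGG had 1 count against 207, a ratio of 0.00579 (exact binomial 95% interval 0.000146 to 0.0326). For FGA the ratio over the 3 experiments was 0.0815 (0.0161 to 0.257), from 3 counts against 38, and in experiments 1 and 3 it had 0 counts against 16, at least 2.12-fold lower. These intervals cover counting error only, not the spread between libraries or the choice of the genes, and are no test.

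The genes that start and restrain clotting are described gene by gene at this dose, again with no test. F3 was 162, 75.5 and 169 CPM after 30 µg/cm2 against 82.9, 28.1 and 94.0 CPM in controls, a ratio of 1.96, 2.69 and 1.79 within experiments 1, 2 and 3. The pooled groups overlapped through experiment 2, which was low in both, and the log2 fold change was 0.98 ± 0.430, or 1.07 ± 0.102 with the experiment as a block in the fit. F2R, the thrombin receptor gene, was 21.4, 19.3 and 23.3 CPM against 39.2, 38.9 and 40.2 CPM, with no overlap between the groups and a log2 fold change of -0.89 ± 0.185. The share of all genes without overlap in this contrast is not given here. Nothing is therefore read from the separation of F2R or of the fibrinogen chains.

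TFPI, the inhibitor of the tissue factor complex, was 57.2, 107 and 62.9 CPM after 30 µg/cm2 against 121, 96.4 and 128 CPM in controls. Its ratio within experiments was 0.474 and 0.490 in experiments 1 and 3 and 1.11 in experiment 2. TFPI2, an inhibitor of plasmin and other serine proteases, was 53.2, 40.0 and 52.8 CPM against 60.6, 19.3 and 68.7 CPM. THBD was 52.1, 25.1 and 53.1 CPM against 81.2, 20.8 and 77.0 CPM. For these 3 genes the ratio to control was below 1 in experiments 1 and 3 and above 1 in experiment 2. F2RL1, the receptor cut by trypsin-like proteases, was 17.4, 11.6 and 16.9 CPM against 21.3, 13.4 and 21.8 CPM, with ratios of 0.776 to 0.866.

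A gene was called where the adjusted p was below 0.05 and the log2 fold change was 0.6 or more in size. By this rule 4 of the 9 genes (FGA, FGB, FGG and F2R, all lower) were called in this contrast, beside 8.07% of all genes tested. With the experiment as a block 6 were called, with TFPI lower and F3 higher in addition, beside 15.2%. Without experiment 2, 7 were called, beside 19.1%. F3 was then at 0.89 ± 0.0989 on the log2 scale, TFPI at -1.07 ± 0.0836, F2R at -0.84 ± 0.126 and THBD at -0.60 ± 0.140, while TFPI2 (-0.30 ± 0.119) and F2RL1 (-0.34 ± 0.105) were not called. A fit of the compared groups alone called 2, and leaving out 1 library gave 3 to 5. Since this contrast chose the genes, nothing is read from these counts.

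Against 1 µg/cm2, the cells given 30 µg/cm2 share the libraries that chose the genes, and this too is a description. FGB was 2.79, 3.87 and 2.78 CPM, FGG 1.97, 6.30 and 2.49 CPM and FGA 0.544, 0.595 and 0.527 CPM after 1 µg/cm2, all above the libraries given 30 µg/cm2. F3 was 59.4, 22.6 and 65.6 CPM after 1 µg/cm2, below every library given 30 µg/cm2, with a log2 fold change of 1.46 ± 0.435 and ratios of 2.57 to 3.35 within experiments. TFPI2 was also lower in every library given 1 µg/cm2 (27.0, 17.7 and 32.9 CPM), and F2R was higher in each (43.8, 26.4 and 47.1 CPM). The share of all genes that separate in this way between the doses is not given here, so nothing is read from it. The called genes were FGA, FGB, FGG and F2R (lower) and F3 (higher), 5 of 9 beside 7.84% of all genes. With the experiment as a block TFPI2 was called higher as well (0.97 ± 0.205). The call of F3 was lost with RLE scaling (1.45), leaving out 1 library gave 3 to 6 calls, and a fit of these groups alone gave 0. Without experiment 2 there were 7 calls, beside 17.3% of all genes, with F3 at 1.38 ± 0.101, TFPI at -0.94 ± 0.0835, TFPI2 at 0.80 ± 0.122 and F2R at -1.05 ± 0.126.

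**Figure D2:**
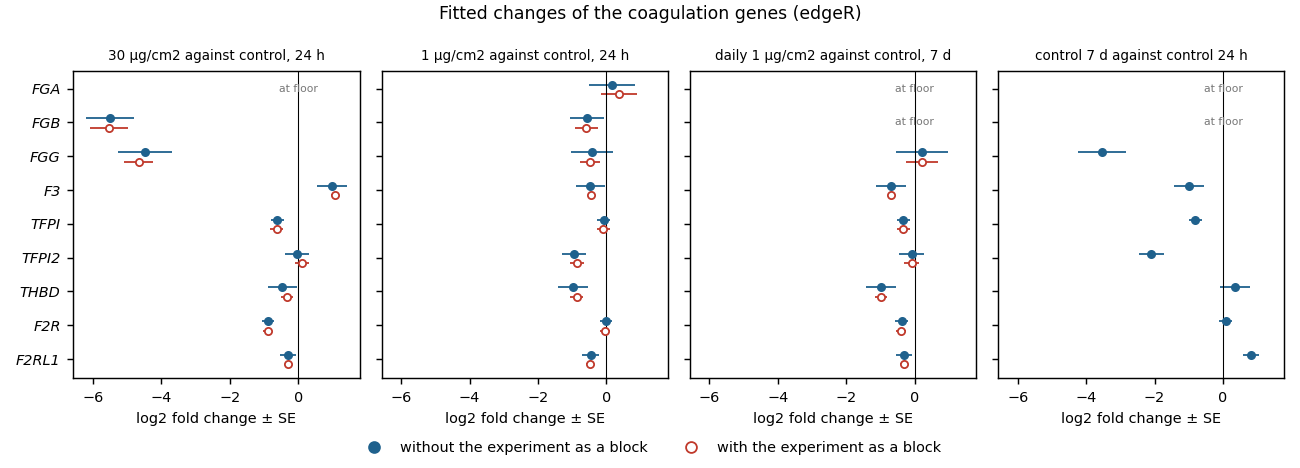
Fitted log2 fold change ± SE of each gene in 4 comparisons, from edgeR with (open) and without (filled) the experiment as a block, on 1 linear axis. "At floor" marks comparisons in which a group had 3 counts or fewer in every library, and no block can be fitted between the protocols. The fibrinogen chains carry the largest values, F3 is right of 0 only after 30 µg/cm2, and after 30 µg/cm2 the block narrows the error of F3 from 0.430 to 0.102.

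A single dose of 1 µg/cm2 gave no call among the 9 genes. The comparison shares the 24-h controls with the one that chose the genes, so a control library that is high or low enters both. FGB was 2.79, 3.87 and 2.78 CPM against 4.28, 4.33 and 5.28 CPM, below every control library, with a log2 fold change of -0.56 ± 0.496, or -0.77 ± 0.296 without experiment 2. Of all genes, 2.13% lay below every control library in this way. FGG and FGA overlapped the controls. Their log2 fold changes were -0.41 ± 0.607 and 0.16 ± 0.679, and -0.58 ± 0.277 and 1.05 ± 0.590 without experiment 2, whose control library held the highest FGA and FGG levels. Since high values in these controls helped to choose the fibrinogen chains, no p is given for them here.

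The lowest fitted values at this dose were those of THBD and TFPI2. THBD was 38.0, 16.4 and 36.9 CPM against 81.2, 20.8 and 77.0 CPM in controls, a ratio of 0.468, 0.788 and 0.479 within experiments 1, 2 and 3. TFPI2 was 27.0, 17.7 and 32.9 CPM against 60.6, 19.3 and 68.7 CPM, a ratio of 0.446, 0.917 and 0.478. In both genes the ratios of experiments 1 and 3 were alike and that of experiment 2 was nearer to 1, and the groups overlapped only through the low control library of experiment 2. The log2 fold change was -0.97 ± 0.439 for THBD and -0.94 ± 0.348 for TFPI2 (edgeR adjusted p = 1 for both), and with the experiment as a block the edgeR adjusted p was 0.0637 and 0.145. Without experiment 2 both were called, at -1.07 ± 0.141 (edgeR adjusted p = 0.000237) and -1.10 ± 0.121 (edgeR adjusted p = 3.98e-05). That fit held 2 libraries per 24-h group and left out the low control values of both genes in experiment 2. It does not settle the calls. Leaving out the control library of experiment 2 alone was enough for a call of TFPI2 (log2 fold change -1.31).

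F3 also had all 3 ratios below 1. It was 0.717, 0.802 and 0.698 times its control in experiments 1, 2 and 3, with a log2 fold change of -0.47 ± 0.428 (edgeR adjusted p = 1). Without experiment 2 it was -0.49 ± 0.0998 (edgeR adjusted p = 0.00761), short of the 0.6 required. F2RL1 was 0.643 to 0.808 times its control, with a log2 fold change of -0.47 ± 0.241 (edgeR adjusted p = 1), or -0.41 ± 0.105 without experiment 2 (edgeR adjusted p = 0.031), also short of 0.6. TFPI (0.896 to 1.03 times) and F2R (0.680 to 1.17 times) had ratios on both sides of 1, and F2R was below its control in experiment 2 only. Without that experiment their log2 fold changes were -0.13 ± 0.0815 and 0.21 ± 0.121.

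At this dose 0 of 9 genes were called by edgeR, beside 0.0625% of all genes, 0 by DESeq2, and 2 (TFPI2 and THBD) had an unadjusted p below 0.05, as did 534 of all genes. Without experiment 2 there were 2 calls, beside 2.11%.

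**Figure D3:**
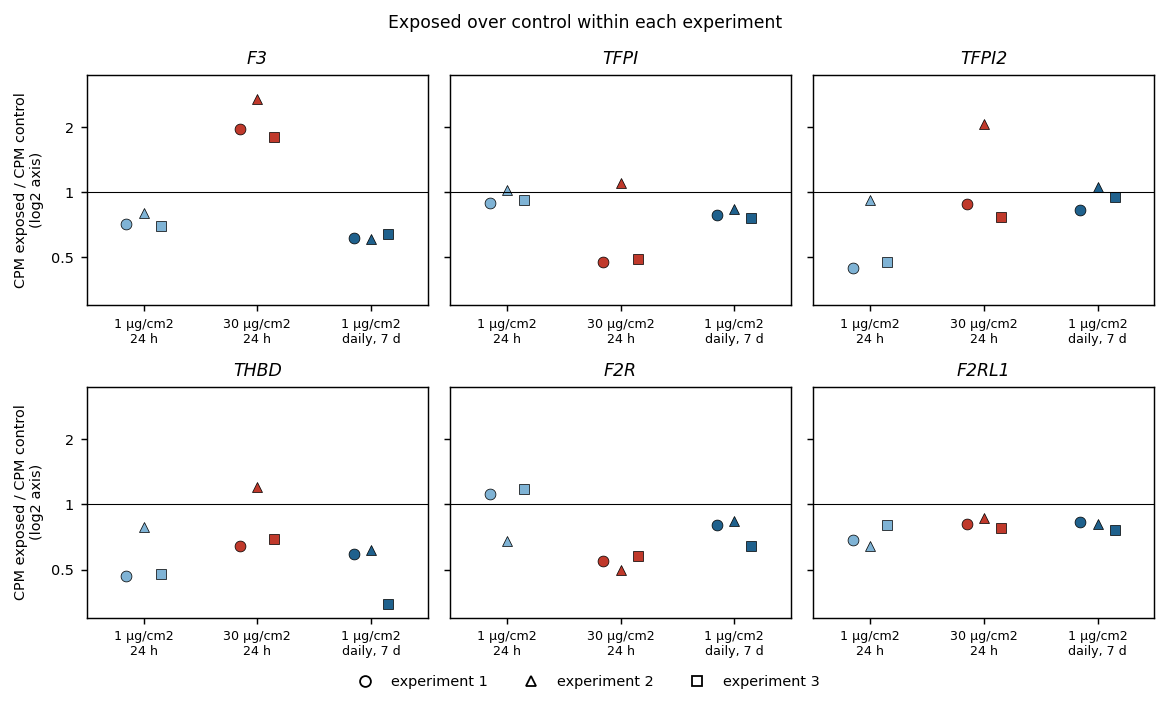
Ratio of CPM in exposed to control cells of the same experiment (log2 axis, 1 = no difference) for F3, TFPI, TFPI2, THBD, F2R and F2RL1 under the 3 exposures. F3 lies below 1 in all experiments given 1 µg/cm2, once or daily, and above 1 in all given 30 µg/cm2, and the triangles of experiment 2 lie on the other side of 1 for TFPI, TFPI2 and THBD after 30 µg/cm2.

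Repeated exposure was compared with its own 7-day controls, which had no part in the choice of the genes. F3 was 20.3, 19.9 and 23.7 CPM against 33.0, 32.7 and 36.9 CPM, a ratio of 0.614, 0.608 and 0.642 within experiments. THBD was 42.9, 42.6 and 29.9 CPM against 73.0, 69.3 and 86.2 CPM, a ratio of 0.588, 0.614 and 0.346. Every exposed library lay below every control library for both genes, and experiment 3 gave the lowest exposed and the highest control value of THBD.

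With 1 spread estimated over all libraries, neither was called (F3 log2 fold change -0.69 ± 0.432, edgeR adjusted p = 0.575, and THBD -0.99 ± 0.438, edgeR adjusted p = 0.391). With the experiment as a block both were called lower, F3 at -0.69 ± 0.104 (edgeR adjusted p = 0.00376) and THBD at -0.997 ± 0.177 (edgeR adjusted p = 0.00634). Thus 0 of 9 were called without the block, beside 0.227% of all genes, and 2 of 9 with it, beside 4.39%. A fit of the 7-day libraries alone, with no block, called the same 2 genes. The share of all genes called in that fit is not given here, so nothing is read from its count. DESeq2 called 0, and 1 gene (THBD) had an unadjusted p below 0.05, as did 2102 of all genes.

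TFPI, F2R and F2RL1 were also below every control library after repeated exposure. TFPI was 50.2, 53.9 and 52.1 CPM against 64.0, 64.5 and 68.3 CPM (log2 fold change -0.33 ± 0.192, edgeR adjusted p = 0.532). F2R was 34.5, 35.3 and 25.8 CPM against 42.68, 41.97 and 40.2 CPM (-0.38 ± 0.183, edgeR adjusted p = 0.429), and F2RL1 was 28.0, 25.8 and 25.7 CPM against 33.8, 31.8 and 33.8 CPM (-0.32 ± 0.238, edgeR adjusted p = 0.645). Together with F3 and THBD, 5 of the 9 genes lay wholly below their controls, beside 21.6% of all genes. The log2 fold change of TFPI, F2R and F2RL1 stayed under the 0.6 required in every fit of this comparison.

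TFPI2 was 11.1, 10.54 and 10.95 CPM against 13.3, 9.93 and 11.5 CPM (log2 fold change -0.09 ± 0.352, edgeR adjusted p = 0.946). It overlapped its controls here, as it also did after the single dose. Fibrinogen could not be compared well at day 7. FGG had 13, 13 and 20 counts against 11, 13 and 12 (log2 fold change 0.23 ± 0.761, edgeR adjusted p = 0.938). FGB had 10 counts in all against 5, a ratio of 1.83 (exact binomial 95% interval 0.570 to 6.83), and FGA had 0 counts against 1. A change of FGB within this interval was not detectable at this depth, and no fold is given for FGA, since both groups were at 3 counts or fewer in every library.

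The repeated and the single response to 1 µg/cm2 were then compared with each other in the same fit. No gene of the 9 was called, beside 0% of all genes, and 0 of the 9 but 1245 of all genes had an unadjusted p below 0.05. The difference was -0.21 ± 0.607 for F3, -0.02 ± 0.615 for THBD and 0.85 ± 0.494 for TFPI2 on the log2 scale (edgeR adjusted p = 0.974, 0.999 and 0.791), so for F3 and THBD a difference of 1 in either direction lies within the approximate 95% interval. Without experiment 2 the difference was -0.19 ± 0.132 for F3 and 0.09 ± 0.180 for THBD, and TFPI2 was called, with a response higher by 1.01 ± 0.164 after repeated exposure (edgeR adjusted p = 0.000802), beside 9.84% of all genes. This comparison contains the 24-h controls that the choosing contrast also used.

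Between the control cells of the 2 protocols, with no particles in either, 3 of the 6 genes outside the fibrinogen chains were called (TFPI and TFPI2 lower, F2RL1 higher), beside 21.9% of all genes. Without experiment 2 it was 4 of 6, with F3 lower in addition, beside 31%. The chains were chosen partly for high values in the 24-h controls and passed the filter through the 24-h groups, so their values are a description with no test. FGB had 2, 3 and 0 counts in the 7-day controls against 142, 92 and 149 at 24 h, a ratio of 0.0121 (exact binomial 95% interval 0.00390 to 0.0285). FGA had 1, 0 and 0 counts, a ratio of 0.0244 (0.000601 to 0.144). Both intervals cover counting error only and not the choice of the genes. FGG had 11, 13 and 12 counts (0.418, 0.418 and 0.376 CPM), with a log2 fold change of -3.54 ± 0.713, or -3.06 ± 0.294 without experiment 2. For all 3 chains every 7-day control library was below every 24-h control library, and the share of all genes for which this held is not given here. Protocol, days in culture, plating density and experiment cannot be told apart here, and the 24-h controls are those of the choosing contrast.

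TFPI2 fell, at 13.3, 9.93 and 11.5 CPM against 60.6, 19.3 and 68.7 CPM (log2 fold change -2.10 ± 0.361, edgeR adjusted p = 0.000841, and -2.50 ± 0.114 without experiment 2). TFPI fell and was 64.0, 64.5 and 68.3 CPM against 121, 96.4 and 128 CPM (-0.81 ± 0.193, edgeR adjusted p = 0.00655, and -0.94 ± 0.0740 without experiment 2). F2RL1 rose, from 21.3, 13.4 and 21.8 CPM to 33.8, 31.8 and 33.8 CPM (0.81 ± 0.240, edgeR adjusted p = 0.0213), a call that was lost without the 24-h control of experiment 2 (0.60) and without the 7-day control of experiment 1 or 3 (0.80 for both). With all 3 libraries of 24-h experiment 2 left out it was called at 0.604 ± 0.0936. F3 was 33.0, 32.7 and 36.9 CPM against 82.9, 28.1 and 94.0 CPM and was not called (-1.001 ± 0.432, edgeR adjusted p = 0.0983), though it was without experiment 2 (-1.39 ± 0.0910, edgeR adjusted p = 3.04e-09).

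THBD (73.0, 69.3 and 86.2 CPM at 7 days) and F2R (42.68, 41.97 and 40.2 CPM) had log2 fold changes of 0.35 ± 0.433 and 0.08 ± 0.183 (edgeR adjusted p = 0.583 and 0.780). Without experiment 2 the values were -0.07 ± 0.125 and 0.05 ± 0.111.

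Across the 15 libraries the fibrinogen chains followed each other, which the choice of genes itself favours. On log2(CPM + 0.5), Pearson's r was 0.947 between FGB and FGG, 0.911 between FGA and FGG and 0.877 between FGA and FGB. TFPI came next to them (r = 0.864 with FGB), whereas F3 was closest to TFPI2 (r = 0.897) and THBD to F2RL1 (r = 0.760). The lowest r was that of FGA and F2RL1 (-0.658), although both were below control within each experiment after 30 µg/cm2. FGA had 3 counts or fewer in every library of that group and of the 7-day groups. The libraries share experiments and conditions, so these values describe the pattern and are no test.

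Among 13870 other genes with a mean of at least 1 CPM, the pattern of FGB was most like that of CCDC80 (r = 0.977), AK4, GJA1, TBL1XR1 and SLC16A14 (r = 0.962). That of FGG was most like TNNT2 (r = 0.977), SCARA3, MARCKS, DCAF6 and ANP32E (r = 0.967). That of F3 was most like EMC1 (r = 0.985), ITGA3, ZFP36L1, PFKP and TFRC (r = 0.974). For THBD the nearest were OSBP (r = 0.926), PPARGC1B, SKI, AFAP1-AS1 and NBR1 (r = 0.914), less close than for the other 3.

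Other genes of coagulation and of fibrinogen control were read from 8 lists with 90 genes, of which 57 could be tested. After 30 µg/cm2, 5 of these 57 were called, beside 8.07% of all genes. Of 10 anticoagulant genes tested, ADTRP, which raises TFPI activity on the cell surface, was higher at 4.24 ± 1.85 CPM (SD, n = 3) against 0.978 ± 0.444 CPM (log2 fold change 2.08 ± 0.455) and the list's median was -0.01. It was the only one called, and with the experiment as a block 2 of the 10 were called higher and 3 lower. Of 7 acute phase genes tested, LCN2, an iron-siderophore binding protein, was 9.13 ± 0.995 CPM against 1.16 ± 0.951 CPM (3.04 ± 0.551), HPX, which binds heme, was higher by 1.18 ± 0.333 on the log2 scale, and the list's median was 1.18. The list did not move in 1 direction, and C3 (-0.72) and SAA1 (-0.36) were lower without a call. With the experiment as a block, 2 genes of this list were called higher and 2 lower. The median of all genes was 0.03 in this contrast.

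Among 11 regulators of fibrinogen genes tested, FOXA1, a forkhead factor of liver and airway, fell from 23.5 ± 4.65 to 12.5 ± 1.84 CPM (log2 fold change -0.91 ± 0.156, median of the list -0.04). IL6, which drives fibrinogen synthesis in hepatocytes, was 2.48 ± 0.286 CPM against 1.85 ± 1.01 CPM and was not called. Of 9 glucocorticoid targets, DUSP1, a phosphatase of MAP kinases, fell from 166 ± 36.8 to 79.4 ± 16.1 CPM (-1.07 ± 0.184), with a median of -0.53 for the list. None of the 3 procoagulant factors, 6 vitamin K and secretion genes, 9 receptor partners and proteases or 2 fibrinogen relatives tested was called. With the block 15 of the 57 were called, beside 15.2% of all genes.

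Against 1 µg/cm2, 7 of the 57 were called after 30 µg/cm2, beside 7.84% of all genes. These were ADTRP (3.04 ± 0.489 on the log2 scale), the thrombin inhibitor SERPINE2 (1.48 ± 0.356), LCN2 (2.28 ± 0.524) and IL6 (1.71 ± 0.395) higher, and FOXA1 (-0.69 ± 0.156) and the glucocorticoid targets ZBTB16 (-1.28 ± 0.371) and KLF9 (-0.90 ± 0.136) lower. SERPINE2 was 42.9 ± 4.82 CPM after 30 µg/cm2, 15.4 ± 4.31 after 1 µg/cm2 and 19.4 ± 8.39 in controls.

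None of the 57 was called after a single dose of 1 µg/cm2, after repeated exposure or between the 2 responses. The medians of the 8 lists lay between -0.47 and 0.33 after the single dose and between -0.26 and -0.02 after repeated exposure, against 0.01 for all genes in both. With the block, 4 of the 57 were called after repeated exposure, beside 4.39% of all genes. They were LCN2 higher (1.26) and IL6R (-0.72), SGK1 (-1.14) and ZBTB16 (-0.95) lower, named here after their values were seen.

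Between the controls, 14 of the 57 were called, beside 21.9% of all genes. TGM2, the tissue transglutaminase, which can cross-link fibrin, fell from 71.1 ± 49.2 to 5.16 ± 1.32 CPM (log2 fold change -3.79 ± 0.641, edgeR adjusted p = 0.00077), 1 of 2 fibrinogen relatives. IL6 fell (-2.02 ± 0.410, edgeR adjusted p = 0.00249) and so did FOXA1 (-0.75 ± 0.155, edgeR adjusted p = 0.00281), while CEBPA, a C/EBP factor, rose (1.37 ± 0.300, edgeR adjusted p = 0.00412). Among the anticoagulants ANXA5 (-1.13 ± 0.123, edgeR adjusted p = 3.38e-05) and PROCR, the protein C receptor (-0.77 ± 0.151, edgeR adjusted p = 0.00204), fell, 2 of 10.

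The proteases PRSS8 and ST14, which activate each other and can lead to cleavage of the F2RL1 receptor, rose from 15.1 ± 2.40 to 50.3 ± 0.601 CPM and from 27.4 ± 0.189 to 78.5 ± 1.44 CPM (log2 fold change 1.73 ± 0.175 and 1.52 ± 0.130, edgeR adjusted p = 2.07e-05 and 8.06e-06), and GNA13 rose as well (0.71 ± 0.179, edgeR adjusted p = 0.00959), 3 of 9. LCN2 was higher at 16.9 ± 1.84 CPM (3.92 ± 0.559, edgeR adjusted p = 0.000231), LMAN1, a carrier of factors V and VIII, at 0.70 ± 0.200 (edgeR adjusted p = 0.0177), and the glucocorticoid targets ZBTB16 (1.06) and KLF9 (0.69) rose while DUSP1 (-0.88) fell.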

How the data were processed

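PolyA RNA was sequenced as single-end reads of 50 bases. The authors aligned the reads to GRCh38 with STAR and counted them per gene with featureCounts, and the deposited counts are whole numbers with no normalization. The labels list hg19, but 57370 of 57437 gene identifiers shared with GENCODE v44 (99.88%) overlap their GRCh38 position there, so coordinates are given as GRCh38. Strand, annotation and counting options are not given in the sources used here.

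The 9 genes, the lists and the motifs were chosen with earlier results of these data known. Lists were described by counts and up to 4 called genes per list and comparison with the largest change, and likeness by the 5 highest correlations. Counts were fitted with edgeR 4.0.16 (R 4.3.3) in its earlier quasi-likelihood mode, over all 15 libraries with 1 mean per group, after filterByExpr (17599 genes) and TMM scaling. The SE is the log2 fold change over the square root of F, and approximate intervals use t quantiles. Benjamini-Hochberg adjusted p-values run over all genes tested. The design text makes the replicate number the experiment. Deviations from group means of same-numbered libraries correlated at 0.271 to 0.785 (24 h) and 0.177 to 0.266 (7 days). Differently numbered libraries gave -0.77 to 0.581 and -0.196 to -0.048, which overlaps the same-numbered range at 24 h. Centring on a group mean favours negative values among them. The experiment within protocol served as a block in an alternative fit. DESeq2 1.42.0, RLE scaling, other filters and left-out libraries were further alternatives. The fit was tested on simulated counts. Depth was 21460981 to 34724765 counts per library, and no 2 libraries of a group agreed within sampling noise.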

Additional observations from a re-analysis of the deposited data

How the results depend on the processing

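RLE scaling, other filters on low counts, edgeR's current mode, the likelihood ratio test and DESeq2 left the number of the 9 genes called in each comparison within 1.5 times of that reported. The experiment as a replicate block moved the calls among the 9 genes after repeated exposure from 0 to 2, and those among the list genes to 15 (30 µg/cm2 against control), 18 (30 against 1 µg/cm2), 4 (repeated exposure) and 3 (repeated against single response). Of all 17599 genes, the block called 15.2% for 30 µg/cm2 against control and 4.39% after repeated exposure. It called 1227 higher and 1510 lower for 30 against 1 µg/cm2, and 61 higher and 120 lower for the difference of responses. Fits of the compared groups alone called 2 of the 9 genes after 30 µg/cm2 against control, 0 against 1 µg/cm2 and 2 after repeated exposure. The shares of all genes called in those fits are not given here, so nothing is read from these counts. No fit with the block was possible between the controls of the 2 protocols, whose experiments differ. Without 24-h experiment 2, 7 of the 9 genes were called after 30 µg/cm2, 2 after 1 µg/cm2 and 1 between the repeated and single responses, the list genes called were 18, 6 and 9 in the same order, and 18 list genes were called for 30 against 1 µg/cm2. Beside these, 19.1%, 2.11% and 9.84% of all genes were called in the same order, and 17.3% for 30 against 1 µg/cm2. Leaving out 1 library at a time gave 3 to 5 calls for 30 µg/cm2 against control, 3 to 6 against 1 µg/cm2, 0 to 1 for 1 µg/cm2, 5 to 6 between controls, and 0 for repeated exposure and for the difference of responses. The causes were not tested.

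The sign changed for TFPI2 after 30 µg/cm2 with the replicate block (0.12), for F2R after 1 µg/cm2 with a filter at 1 CPM (0.008) and without experiment 2 (0.21), and for THBD without experiment 2 between the controls (-0.071) and between the responses (0.087). With 1 library left out, ranges that cross 0 were -0.41 to 0.28 for TFPI2 after 30 µg/cm2, -0.23 to 1.10 for FGA, -1.08 to 0.10 for FGG, -0.183 to 0.005 for TFPI and -0.17 to 0.21 for F2R after 1 µg/cm2, -0.09 to 0.38 for F2RL1 between the doses, -0.195 to 0.018 for TFPI2, -0.023 to 0.37 for FGG and -2.32 to 0 for FGA after repeated exposure, -0.075 to 0.608 for THBD between the controls, and -0.55 to 0.15 for F3, -0.31 to 0.38 for THBD and -0.092 to 0.378 for F2RL1 between the responses. None of these values was called in any of those fits. FGA and, outside the 24-h control and 1 µg/cm2 cells, FGB and FGG rest on counts of 0 to 22 per library, which limits what can be seen of them.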

Other observations

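LCN2, a secreted iron-siderophore binding protein and acute phase gene, is set out over all groups here because of its values. It was 1.16 ± 0.951 CPM (SD, n = 3) in the 24-h controls, 1.95 ± 1.67 after 1 µg/cm2, 9.13 ± 0.995 after 30 µg/cm2, 16.9 ± 1.84 in the 7-day controls and 41.97 ± 13.6 after repeated exposure. After repeated exposure its log2 fold change was 1.31 ± 0.469 (edgeR adjusted p = 0.277) and it was not called. With the experiment as a block it was called (1.26), and no other fit of this comparison was examined for it.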
